A study of Mus musculus with 40 samples.

Results

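Retina and choroid of the same 5 control mice were compared, which makes 10 libraries, 5 of each tissue, out of the 40 libraries and 20 mice of the series. The libraries were those labelled as retina or choroidea of Cre-negative mice on control food, and the tissues of a mouse were joined by the mouse number in the library names. Control mice carried floxed *Tgfbr2* alleles (*Tgfbr2* fl/fl) but not *Cdh5*-Cre ERT2, the Cre that tamoxifen activates in endothelial cells of their *Tgfbr2* deltaEC littermates. All were on a C57BL/6J background, included both sexes, received tamoxifen eye drops for 5 days at 6 to 7 weeks of age and were fed without PLX5622, an inhibitor of the CSF1 receptor that depletes mononuclear phagocytes. Both tissues came from eyes with 6 laser burns and were taken on day 3, and of the choroid only the central piece with the lesions was used. No unlasered eye was among these libraries, so the identity of a tissue and its response to the laser cannot be told apart here. In bulk tissue, moreover, fewer cells of a type and less RNA per cell cannot be told apart.

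The retina is the light-sensing neural tissue at the back of the eye, in which rods and cones pass their signal through bipolar cells to ganglion cells, with amacrine and horizontal cells at the synapses and Müller glia spanning all layers. The choroid behind it is a dense vascular bed with melanocytes, fibroblasts, nerves and resident immune cells in a collagen-rich stroma. Between them lies the retinal pigment epithelium (RPE), a pigmented monolayer that takes up shed photoreceptor discs and regenerates the visual chromophore for the opsins. Neural retina and RPE both arise from the optic cup, while the stroma of the choroid is largely of neural crest origin.

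Some genes of photoreceptors, pigment cells and muscle carry known short motifs before their starts, and 9 stretches of 70 bases are printed for genes whose values follow. They were read from GRCm39, the build to which the authors mapped their reads, upstream of the canonical start in GENCODE release 39, on the strand of the gene. The first group shows the core letters bound by CRX, the photoreceptor homeobox factor (TAATCC, or GGATTA on the other strand), in *Sag* (chr1:87731283-87731352, plus strand), *Gngt1* (chr6:3993698-3993767, plus strand) and *Gucy2e* (chr11:69127871-69127940, minus strand) of rods and in *Gnb3* (chr6:124817260-124817329, minus strand) of cones. The second shows the M-box letters recognized by MITF and related factors of pigment cells (CATGTG, or CACATG on the other strand) in *Rpe65* (chr3:159304552-159304621, plus strand), *Rgr* (chr14:36770939-36771008, minus strand), *Tyr* (chr7:87142721-87142790, minus strand) and *Dct* (chr14:118289771-118289840, minus strand). The third shows the muscle E-box CAGCTG, which reads the same on both strands, in *Mylpf* (chr7:126810697-126810766, plus strand). The capitals mark the letters of each stretch's own group, and the stretch of *Dct* also holds TAATCC near its end, in lower case.
Sag: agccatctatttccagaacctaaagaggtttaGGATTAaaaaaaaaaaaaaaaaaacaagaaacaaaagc
Gngt1: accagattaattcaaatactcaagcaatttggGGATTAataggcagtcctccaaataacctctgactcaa
Gucy2e: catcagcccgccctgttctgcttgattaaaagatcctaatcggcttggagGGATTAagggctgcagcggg
Gnb3: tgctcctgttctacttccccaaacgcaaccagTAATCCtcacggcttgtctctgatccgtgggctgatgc
Rpe65: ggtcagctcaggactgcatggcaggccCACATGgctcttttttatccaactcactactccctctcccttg
Rgr: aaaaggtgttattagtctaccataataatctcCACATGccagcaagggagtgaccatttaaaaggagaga
Tyr: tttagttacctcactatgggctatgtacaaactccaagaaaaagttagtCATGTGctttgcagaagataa
Dct: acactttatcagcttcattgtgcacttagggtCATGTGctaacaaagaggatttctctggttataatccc
Mylpf: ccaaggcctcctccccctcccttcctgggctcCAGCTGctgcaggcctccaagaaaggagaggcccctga

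Over the 250 bases before the start, on both strands, TAATCC was found in 8 of 24 rod genes (33.3%) and 4 of 11 cone genes (36.4%), in 5 of 26 RPE and pigment cell genes (19.2%) and in 1118 of all 17122 tested protein-coding genes (6.53%). CATGTG was found in 10 of 26 RPE and pigment cell genes (38.5%), in 5 of 24 rod genes (20.8%) and in 8.84% of all. CAGCTG was found in 7 of 20 skeletal muscle genes but also in 4 of 11 cone genes (36.4%), against 11.9% of all. The other motifs searched were less frequent in their lists. TGCTGA, the core letters of the rod factor NRL, was found in 4 of 24 rod genes (16.7%) and in 8 of 20 muscle genes, against 13.8% of all. The CArG box was found in 1 and the MEF2 motif in 2 of 20 muscle genes, against 1.2% and 2.2% of all. Across the genes called higher in one tissue or the other the letters were about as frequent as in all genes, with TAATCC before 6.67% of those higher in retina and CATGTG before 9.94% of those higher in choroid. These shares describe letters in a window and were not tested. Overlap between motifs was not examined.

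The deposited values are DESeq2-normalized counts, which are not scaled to gene length, so they are compared between tissues and not between genes. Libraries summed to 22256892 to 23734937 normalized counts in retina and 25059731 to 25723156 in choroid, with 23188 to 24238 and 22767 to 24214 genes above 0. A log2 difference is the choroid minus the retina on the log2(normalized count + 1) scale with the mouse as a block, so positive values are higher in choroid, and the scale understates the change of low genes. A gene was called at an adjusted p at or under 0.05 together with a log2 difference of at least 1 in either direction. Among the 24224 genes whose mean reached 1, 6361 (26.3%) were called higher in choroid and 5384 (22.2%) higher in retina, and these are the shares against which the counts of list members below are read. At the adjusted p alone the shares were 33.5% and 31.8%, together 65.3%, and the fold requirement brought them to 48.5% in all. Among protein-coding genes the shares were 29.7% and 20.1%. Every choroid lay above every retina for 27.9% of the genes and every retina above every choroid for 25.2%. The median difference over all genes was 0.00, and it moved to -0.14 when all libraries were set to equal totals and to -0.15 with equal 75th percentiles, where 5953 against 5951 and 5915 against 6006 genes were called higher in choroid and in retina. At the other end, 1820 genes (7.51%) had a 95% interval of the difference within 0.5 of 0, and those closest to 0 at a mean of at least 1000 were *Dnaja1* (-0.19 to 0.19), a chaperone, *Cpeb4* (-0.18 to 0.20), which binds mRNA, and *Ncl* (-0.19 to 0.20), a nucleolar protein.

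**Figure D1:**
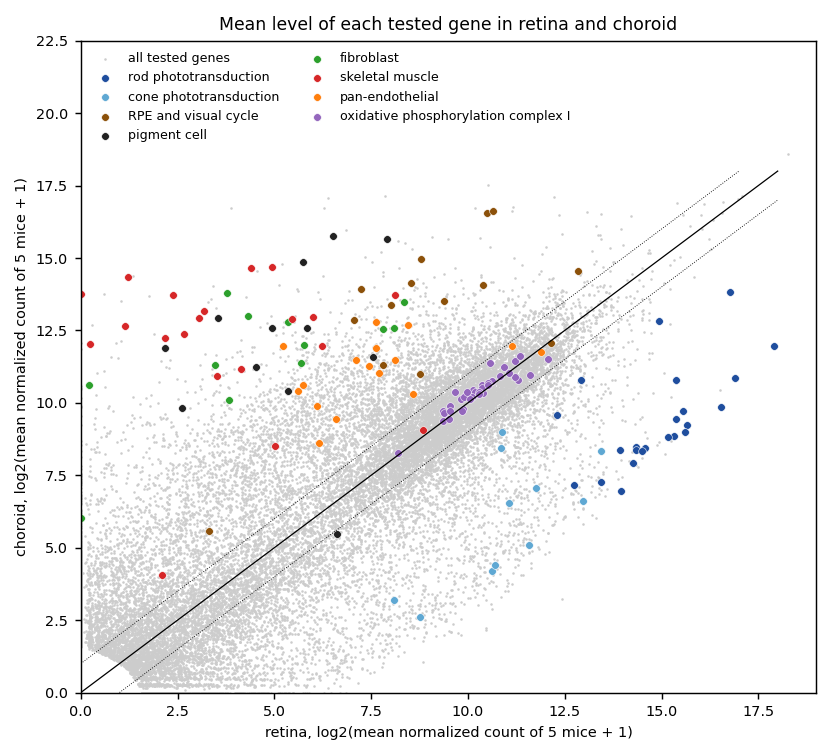
Each grey point is a tested gene, with its mean level in 5 retinas on the x axis and in 5 choroids on the y axis, as log2(mean normalized count + 1); the solid line marks equal levels, the dotted lines a difference of 1, and colours mark 8 gene lists. Rod genes lie far below the line, muscle, pigment and fibroblast genes far above it, and the complex I subunits on it.

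The markers given for the choroid were higher there in every mouse. *Rpe65*, the isomerase of the visual cycle (chr3:159304802-159330958), stood at 36856, 33980, 38007, 25101 and 25752 normalized counts in the choroids of mice 1 to 5 and at 153, 702, 722, 466 and 155 in their retinas. The tissues did not overlap, and the difference was 6.47 (SE 0.35, adjusted p = 8e-07). *Cdh5*, the cadherin of endothelial junctions (chr8:104828231-104871143), stood at 3955, 3260, 3245, 4217 and 4364 in choroid and at 184, 132, 82.4, 320 and 273 in retina. It was also apart in every mouse, with a difference of 4.41 (SE 0.21, adjusted p = 4.2e-07). Neither marker was absent from the retina, where *Rpe65* reached up to 722.

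The opsins were divided between the tissues. The cone pigments *Opn1mw* (-7.45) and *Opn1sw* (-6.50) and *Opn4* (-3.98), the melanopsin of light-sensitive ganglion cells, were higher in retina. *Opn5*, a violet-sensitive opsin, was called at -1.62, but at 0.857 to 5.33 normalized counts in retina it was close to the floor, and it was lost when mouse 1, 3, 4 or 5 was left out. *Rgr*, a non-visual opsin of RPE and Müller glia, went the other way. It was at 110480, 108010, 84749, 81635 and 96505 in choroid and at 613, 2770, 1755, 1164 and 928 in retina, a difference of 6.24. *Rrh* (peropsin) followed it at 2.24. *Opn3*, which overlaps *Chml* on the same strand, was not called (0.51, adjusted p = 0.25).

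All 24 rod genes and all 11 cone genes were higher in retina, with every retina above every choroid, and their median differences were -6.41 and -5.32. The largest rod differences were those of *Prph2*, a structural protein of the disc rim (-7.10), *Cnga1*, a subunit of the rod cyclic nucleotide-gated channel (-7.06), and *Pdc*, which binds transducin subunits (-6.95). *Gnat1*, the rod transducin (chr9:107551673-107556911), was at 198474, 301144, 241580, 264505 and 229610 in the retinas and at 4808, 1560, 654, 6193 and 6607 in the choroids. The choroids of mice 1, 4 and 5 held more of it than those of mice 2 and 3, but none came near a retina, and the difference was -6.40 (SE 0.49, adjusted p = 6.4e-06). Of the genes shown above, *Sag* (-6.45), *Gngt1* (-6.41), *Gucy2e* (-5.60) and *Gnb3* (-5.23) were in the same range. The smallest differences among rod genes were those of *Rgs9* (-2.06), *Slc24a1* (-2.12), *Gucy2f* (-2.61) and *Gnb1* (-2.95), and *Gnb1*, a G protein subunit used in many cell types, kept 11821 to 16681 normalized counts in choroid. Together the rod genes made up 7.23% ± 0.70 (SD, n = 5) of a retina library and 0.177% ± 0.062 of a choroid library.

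The level of rod transcripts in a choroid differed from mouse to mouse. The median rod gene in the choroid stood at 2.43%, 0.575%, 0.30%, 2.36% and 2.37% of its level in the retina of the same mouse for mice 1 to 5. For cone genes the values were 3.99%, 1.25%, 1.06%, 2.94% and 2.55%. Mice 2 and 3 were thus lowest for both. The part of these transcripts in other differences was not tested, and every count below includes all 5 mice unless stated.

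**Figure D2:**
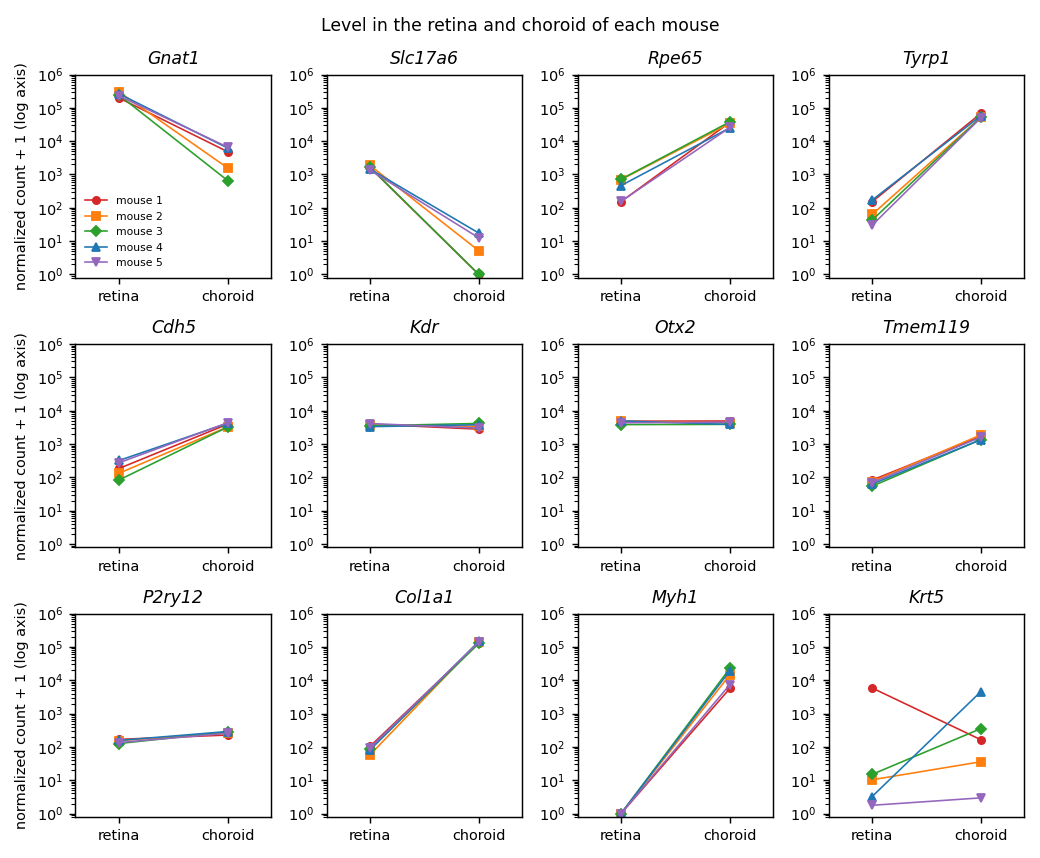
The 12 panels give the normalized count + 1 of a gene on a log axis in the retina (left) and choroid (right) of each mouse, joined by a line. *Gnat1* and *Slc17a6* drop in all 5 mice, *Rpe65*, *Tyrp1*, *Cdh5*, *Tmem119*, *Col1a1* and *Myh1* rise in all 5, *P2ry12* is apart in all 5 by a smaller step, *Kdr* and *Otx2* overlap between the tissues, and *Krt5* runs in both directions.

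RPE and pigment genes formed the counterpart in choroid. Of 14 RPE and visual cycle genes, 13 were higher in choroid, with a median difference of 4.83. *Lrat*, which esterifies retinol for the visual cycle, was at 11565 to 18610 in choroid and 65.0 to 252 in retina, a difference of 6.82. *Rlbp1*, a retinaldehyde-binding protein that Müller glia also make, had the smallest difference of those called, 1.74, since retina held 4408 to 10739. The exception was *Otx2*, a homeobox factor of both photoreceptors and RPE. It was at 4846, 4796, 3830, 4954 and 4345 in retina and 4913, 4284, 3887, 3862 and 4512 in choroid. The values overlapped, with a difference of -0.09 and a 95% interval of -0.30 to 0.13.

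Of 12 pigment cell genes, 11 were higher in choroid, with a median difference of 7.49. *Mlana* (10.11), *Slc45a2* (9.81), a melanosomal transporter, and *Tyrp1* (9.58), an enzyme of melanin synthesis, led them. *Tyrp1* was at 68333, 52000, 52046, 57981 and 50245 in choroid and at 150, 62.1, 41.7, 170 and 29 in retina. Of the genes whose M-box is printed above, *Tyr* differed by 6.87 and *Dct* by 8.00. RPE and choroidal melanocytes both use these genes, and the values do not separate them. *Sox10* (7.87) and *Foxd3* (in choroid at 153 to 196 and at 0 in all retinas), both factors of neural crest derivatives that include melanocytes and Schwann cells, were also higher in choroid. *Mc1r*, the melanocortin receptor, went against its list, at 64.6 to 130 in retina and 39.2 to 50.4 in choroid. Its difference of -1.12 was no longer called when mouse 2 was left out.

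Genes of inner retinal neurons stood at the retinal end. The 10 protein-coding genes with the largest retinal excess at a mean of at least 100 were *Slc17a6*, *Gm50461*, *Fstl5*, *Vsx1*, *Glra2*, *Glra3*, *Lactbl1*, *Gabra2*, *Gabrr1* and *Scgn*, from -8.59 to -7.78. *Slc17a6*, the vesicular glutamate transporter of ganglion cells (chr7:51271434-51320867), was at 1606, 1869, 1646, 1451 and 1346 in retina and at 0, 4.15, 0, 16.5 and 11.6 in choroid. The tissues were far apart in every mouse. *Gm50461* overlaps *Guca1a* on the same strand, so its reads may be shared with that rod gene, and its value is uncertain. Of the bipolar list 11 of 12 were higher in retina (median -6.85), led by *Vsx1* (-8.09), *Bhlhe23* (-7.63) and *Cabp5* (-7.37). The amacrine and horizontal cell list had 14 of 15 higher in retina (median -6.18), led by *Calb1* (-7.67), the GABA and glycine vesicle transporter *Slc32a1* (-7.52) and *Gad1* (-7.52), which makes GABA. The ganglion cell list had 10 of 11 (median -5.85), with the neurofilament gene *Nefl* (-6.61) and the factor *Pou4f1* (-6.19) after *Slc17a6*. The exceptions in these lists were few. *Trpm1*, the channel of ON bipolar cells that is also made in melanocytes, was at 4294, 2256, 2261, 4331 and 3445 in retina and at 9056, 8329, 9029, 8715 and 8141 in choroid, higher in choroid by 1.44 (adjusted p = 7.3e-05). The glycine transporter gene *Slc6a9* (-0.34) and the RNA-binding *Rbpms* (0.57) were not called.

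**Figure D3:**
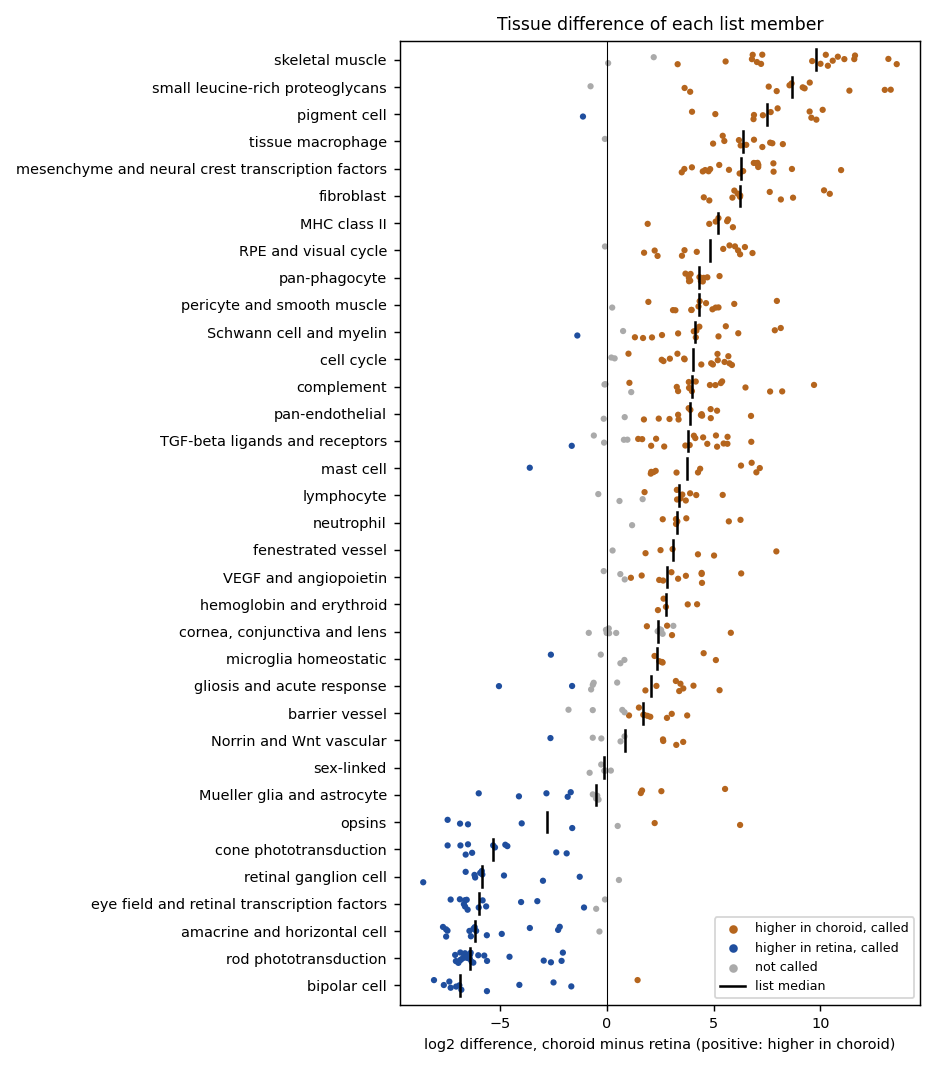
Each row is a gene list, sorted by its median (black bar), and each point is a member at its log2 difference, choroid minus retina, on the x axis; brown points were called higher in choroid, blue higher in retina and grey were not called. Lists of retinal neurons have medians between -6.85 and -5.32, fibroblast and muscle lists have medians of 6.24 and 9.81, and the Müller glia and opsin lists are divided.

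Transcription factors followed the same division. Of 15 eye field and retinal factors, 13 were higher in retina, among them *Crx* (-6.88) and *Nrl* (-6.69) of photoreceptors, *Nr2e3* (-6.64) of rods and *Six6* (-6.63). *Crx*, whose motif letters are shown above, was at 21242 to 25541 in retina and at 289, 91.5, 46.1, 493 and 457 in choroid. *Otx2* and *Lhx2* (-0.50, adjusted p = 0.045) were not called. All 20 factors of mesenchyme and neural crest were higher in choroid, with a median of 6.30. *Prrx1* (8.67), *Twist1* (7.81), *Meox1* (7.80) and *Tbx18* (7.09) were among them. Of 35 tested forkhead factors, 17 were higher in choroid and 5 in retina, with *Foxd3* (at 0 in all retinas and at least 59-fold higher) and *Foxc2* (6.88) among the former and *Foxj1* (-2.83), a factor of ciliated cells, among the latter. Of 39 Hox genes only 6 passed the minimum mean, among them *Hoxb4* at 29.5 to 39.4 in choroid and 0 to 1.99 in retina. The family summed to 2.47 to 8.31 normalized counts in a retina and 69.0 to 102 in a choroid, so most members that passed did so through the choroid, and their direction is not read further.

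Neurotransmitter receptors and channels were mostly retinal, family by family. All 8 metabotropic glutamate receptors were higher in retina (median -6.84), with *Grm5* (-7.01) first. Of 18 ionotropic glutamate receptors 13 were higher in retina and none in choroid, led by *Gria2* (-6.73) and *Grin1* (-6.46). Of 19 tested GABA receptor genes 12 were higher in retina, with *Gabra2* at -7.79, while *Gabre* (3.85) was higher in choroid at 96.4 to 160. The glycine receptors *Glra2* (-7.95) and *Glra3* (-7.90) were among the 4 of 5 higher in retina. Voltage-gated sodium channels counted 7 of 13 higher in retina, led by *Scn1a* (-6.44), and 2 higher in choroid. Voltage-gated potassium channels counted 26 of 39 higher in retina, led by *Kcnh7* (-7.01), and 6 higher in choroid, among them *Kcna7* (5.91). Synaptotagmins, the calcium sensors of vesicle release, counted 13 of 17 in retina. *Syt1* had the lowest p of the genes higher in retina. It was at 20256 to 26824 in retina and at 378 to 557 in choroid, a difference of -5.60 (SE 0.08, adjusted p = 1.4e-08).

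All 8 genes of the BBSome and its chaperonins, which move proteins through the photoreceptor cilium, were higher in retina, with a median of -2.80 and *Bbs7* first (-3.43). Of 19 crumbs and intraflagellar transport genes only 6 were called, all higher in retina. *Crb1*, a polarity protein of photoreceptors and Müller glia, led at -7.11. Kinesins, the motors of microtubules, were called 13 times in each direction among 37. *Kif5c* (-3.84) and *Kif21b* (-3.59) led in retina, and the mitotic *Kif23* (5.01) and *Kif18b* (4.17) in choroid.

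Genes of Müller glia and astrocytes did not follow one tissue. Of 13, 5 were higher in retina and 4 in choroid, with a median of -0.50. The shares of all genes were 22.2% and 26.3%, so the choroidal count was close to the background. *Rax* (-5.99), a retinal homeobox factor, *Aqp4* (-4.11), the water channel of glial endfeet, and *Slc1a3* (-2.82), a glutamate transporter, were higher in retina. *S100b* (5.54), also made in Schwann cells and melanocytes, *Car14* (2.56), also a carbonic anhydrase of RPE, *Hes1* (1.65) and *Sox9* (1.59) were higher in choroid. *Glul*, glutamine synthetase, was at 30944 to 51315 in retina and 27981 to 34816 in choroid and was not called (-0.39). *Gfap* differed between the mice. It was at 1276, 2150, 2074, 695 and 1513 in retina and at 3020, 111, 5141, 194 and 1824 in choroid, so that it was higher in choroid in mice 1, 3 and 5 and in retina in mice 2 and 4. Of 14 genes of gliosis and the acute response, 8 were higher in choroid, with *Timp1* (5.28) and *A2m* (4.06), both protease inhibitors, and *Osmr* (3.58), the oncostatin M receptor, in front. *Edn2*, an endothelin induced in stressed photoreceptors, was higher in retina. It was at 1436, 458, 1118, 260 and 1809 in retina and at 49.2, 12, 7.25, 28.1 and 55.2 in choroid, a difference of -5.05. *Lcn2* was also higher in retina, by 1.62 on the log2 scale (a difference of -1.62).

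Endothelial genes were higher in choroid with 2 exceptions. Of 16 pan-endothelial genes, 14 were called higher in choroid, with a median of 3.87. *Emcn*, a sialomucin of capillaries and veins, stood at 4278, 4086, 3842, 3986 and 3684 in choroid and at 34, 41.7, 42.2, 33.3 and 29.7 in retina. Its difference of 6.75 (SE 0.13) was the largest of the list, before *Eng* (5.16) and *Mmrn2* (4.87). *Kdr*, the main receptor for VEGF, was at 3957, 3844, 3521, 3325 and 4118 in retina and at 2789, 3383, 4148, 3789 and 3004 in choroid. The tissues overlapped, and the interval of its difference was -0.45 to 0.16. *Flt1* was apart in every mouse by 0.84, also under the fold required for a call. Genes of fenestrated vessels were higher in choroid in 6 of 7 tested. *Plvap*, which forms the diaphragms of fenestrae, was at 4580 to 6606 in choroid and 133 to 204 in retina (5.02), and *Esm1* (7.94) was at 481 to 615 in choroid and at 0 to 2.90 in retina. Of 13 genes of barrier vessels, which the retinal circulation and the brain are known for, 9 were also higher in choroid and none was called in retina. *Itm2a* (3.76), *Mfsd2a* (3.04), a lipid transporter that limits transcytosis, *Slco1a4* (2.82) and *Cldn5* (1.76) were among them. Several are not restricted to vessels. *Slc38a5* was lower in the choroids of mice 1, 3 and 5 than in any retina but overlapped in mice 2 and 4, and it was not called (-1.79, adjusted p = 0.073). It passed without the mouse block (adjusted p = 0.039) and without mouse 4 (-2.53, adjusted p = 0.019). Of 14 pericyte and smooth muscle genes 13 were higher in choroid (median 4.32). *Des* (7.96) led, a gene that skeletal muscle shares, and *Acta2* (5.97) and *Cnn1* (5.23) of smooth muscle came next.

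Ligands and receptors of vessels were split in part. In the VEGF and angiopoietin list 11 of 14 were higher in choroid, with the ligand *Angpt1* (6.29) at 2356 to 3683 against 27.5 to 50.9, *Pgf* (4.46) and the co-receptor *Nrp1* (4.44). *Vegfa* was apart in every mouse but by 0.63, under the fold required. In the list of Norrin and vascular Wnt signalling the ligand and its receptors lay in opposite tissues. *Ndp*, which encodes Norrin, was at 203, 307, 282, 192 and 219 in retina and at 37.4, 30.8, 50.1, 34.1 and 36.2 in choroid, a difference of -2.64. *Fzd4*, its receptor, was at 4374 to 5693 in choroid and 452 to 583 in retina (3.25), and the co-receptor *Lrp5* differed by 3.58. *Adgra2* (2.64) was also higher in choroid, and 4 of 9 tested genes of the list were not called. Among 22 ligands and receptors of the TGF-beta family 17 were higher in choroid (median 3.78), led by *Ltbp2* (6.76), which binds to microfibrils. The receptor *Tgfbr2* and the ligand *Bmp4* came next (5.65 each). *Tgfbr2* itself, intact in these mice, was at 10849, 10709, 10794, 10328 and 9836 in choroid and at 293, 164, 190, 172 and 248 in retina. The tissues were apart in every mouse, and the difference was 5.65 (SE 0.14, adjusted p = 3.5e-08). *Bmpr1b* (-1.64) was the member higher in retina.

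Stromal genes stood at the choroidal end. All 12 fibroblast genes were higher in choroid (median 6.24), with *Dpt* (10.44) at 1160 to 1823 against 0 in 4 retinas and 0.754 in the fifth, *Thbs2* (10.17) and *Pi16* (8.72). Of 13 small leucine-rich proteoglycans, which organize collagen fibrils, 12 were higher in choroid, with a median of 8.65 (7.95 when the genes at 0 in every retina are set to a floor of 3 normalized counts). *Lum* (chr10:97400990-97408577) was at 24089, 20392, 19637, 19517 and 22653 in choroid and at 1.90, 0, 3.53, 0 and 2.21 in retina. *Dcn* (chr10:97315275-97358155) was at 125280, 117893, 109100, 102106 and 87775 in choroid and 5.23 to 23.4 in retina. The differences were 13.29 and 13.01 on the log2 scale, and with a pseudocount of 5 in place of 1 they were 11.70 and 12.59. *Kera*, at 341 to 800 in choroid and 0 in all retinas, was at least 201-fold higher and *Epyc* at least 247-fold higher, against a floor of 3 normalized counts in each retina.

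Collagens took 2.53% ± 0.18 (SD, n = 5) of a choroid library and 0.0885% ± 0.0099 of a retina library. Of 44, 29 were higher in choroid and 10 in retina, the latter count close to the 22.2% of all genes. The fibrillar *Col3a1* (11.08) and *Col1a1* (10.70) led in choroid, and *Col1a1* had the lowest p of all genes higher in choroid. *Col1a1* (chr11:94827050-94843868) was at 131337, 143444, 127916, 145738 and 141605 in choroid and 103, 56.9, 83.1, 80.8 and 92.7 in retina, with an SE of 0.14. The collagen of vitreous and cartilage *Col2a1* was at 988 to 1883 in retina and 32.9 to 136 in choroid (-4.46), and *Col25a1* (-4.36), a transmembrane collagen of neurons, was also retinal. Of 11 laminins 9 were higher in choroid, with *Lama2* (6.04) and *Lama4* (5.48) first, and *Lama1* (-1.96) of the inner limiting membrane was higher in retina. Of 26 integrins 25 were called higher in choroid and none in retina, led by *Itga11* (6.20), a collagen receptor of fibroblasts, and *Itgax* (5.48) of myeloid cells.

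Proteases of the matrix were choroidal with named exceptions. Of 18 tested matrix metalloproteinases 15 were higher in choroid, and *Mmp3* (12.28) was at 10812 to 16113 against 0.756 to 8.49. *Mmp12* (7.57), the macrophage elastase, followed. *Mmp24* (-6.37), a membrane-bound enzyme of neurons, was at 553 to 702 in retina and 4.68 to 11 in choroid, and *Mmp17* (-1.20) was also higher in retina. *Mmp9* was not called, with an interval of -0.50 to 0.47. Of 19 ADAMTS proteases 13 were higher in choroid, with *Adamts14* (6.48) and *Adamts2* (6.29), which process procollagen, and 2 in retina, *Adamts18* (-3.66) and *Adamts3* (-3.03). *Timp3*, an inhibitor that is deposited in Bruch's membrane by the RPE, was at 101793, 105145, 96771, 112234 and 87052 in choroid and 1881 to 2836 in retina, a difference of 5.50 with an SE of 0.09. *Hspg2*, the basement membrane proteoglycan perlecan (6.42), and *Clic6* (5.8) also had SEs of 0.11 or less. Insulin-like growth factors and their binding proteins were higher in choroid in 8 of 9, and *Igfbp5* (7.0) was at 142856 to 210199 against 1111 to 1766.

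The 10 protein-coding genes with the largest choroidal excess at a mean of at least 100 were *Myh1*, *Lum*, *Angptl7*, *Myh4*, *Dcn*, *Prg4*, *Itgbl1*, *Mmp3*, *Bpifb1* and *Tnnc2*, from 13.57 to 11.62. Since *Myh1* and *Bpifb1* were at 0 in all retinas and the others, apart from *Dcn*, were near 0 in at least some, these differences and their order depend on the pseudocount. With a pseudocount of 5 *Dcn* was the largest of the 10 (12.59), *Myh1* was at 11.25, *Angptl7* at 11.26, *Itgbl1* at 10.28 and *Bpifb1* at 9.72. *Angptl7*, a secreted protein known from the anterior segment and sclera, was at 20522, 14015, 14593, 9402 and 11438 in choroid and below 1 in each retina. *Prg4*, the lubricin of joints, was at 8956 to 14341 against 0 to 4.53. *Bpifb1* was at 3187 to 5241 in choroid and at 0 in all retinas, so that it was at least 1440-fold higher.

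Skeletal muscle genes stood beside them. Of 20, 18 were higher in choroid with a median of 9.81. *Myh1*, a fast myosin heavy chain, was at 5670, 14597, 22733, 19253 and 7385 in choroid and 0 in all retinas, which makes it at least 4643-fold higher. *Myh4* was at 7364, 19137, 31080, 39461 and 7858 in choroid. *Acta1*, the skeletal actin, was at 11857, 26730, 40961, 42865 and 11124, and *Mylpf*, whose E-box is printed above, at 3719, 8754, 12891, 10841 and 3472. In all of these mice 3 and 4 were the highest, mouse 2 came next and mice 1 and 5 were the lowest. Summed over the list, the choroids of mice 1 to 5 held 79701, 170971, 275731, 287093 and 70719 normalized counts, a 4.06-fold range, while the fibroblast list ranged over 1.17-fold and the RPE list over 1.4-fold. The labels name no muscle in these samples, and the part of this content in other differences was not tested. *Myh13*, the myosin typical of extraocular muscle, was at 1.63 to 36.6 in choroid and was not called (2.20, adjusted p = 0.078), but passed without mouse 4 (3.24, adjusted p = 0.0096). *Rpl3l* (6.44), a ribosomal protein variant of muscle, at 182, 390, 785, 586 and 142, and *Scn4b* (1.55), at 383, 651, 1474, 1499 and 333, ran with the muscle genes over the mice.

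Schwann cell and myelin genes were higher in choroid in 14 of 16 (median 4.12). *Prx* (6.15), a gene of peripheral myelin, was at 480 to 820 against 2.03 to 16.2. *Dhh*, a ligand made by Schwann cells, was called the other way, at 340 to 526 in retina and 110 to 197 in choroid (-1.38), and it overlaps *Rhebl1* on the same strand, so that its reads may be shared. *Scn7a* (1.70), a sodium channel of these cells, was higher in choroid.

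**Figure D4:**
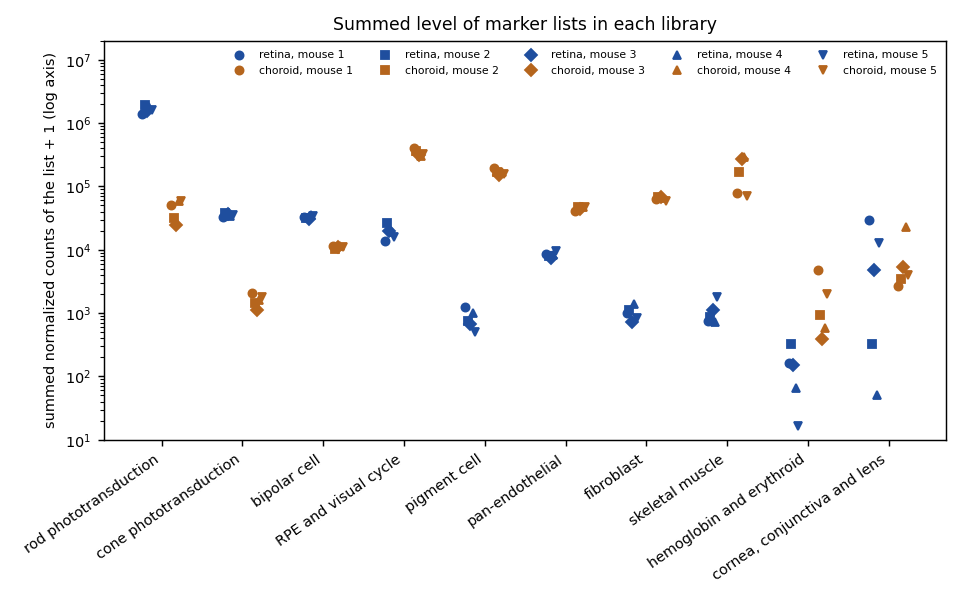
Summed normalized counts + 1 of 10 marker lists (log axis) in each retina (blue) and choroid (brown), with a marker shape for each mouse. Endothelial sums range over 1.28-fold among the retinas and 1.14-fold among the choroids, rod sums over 1.39-fold and 2.42-fold, the muscle sum of the choroid spans 70719 to 287093, and the list of cornea, conjunctiva and lens spans 49.3 to 28989 in retina.

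Mononuclear phagocyte genes were higher in choroid. All 11 pan-phagocyte genes were called (median 4.34), with *Cd68* (5.28), a lysosomal glycoprotein, *Fcgr3* (4.71) and *Tyrobp* (4.53) first. *Csf1r*, the receptor that PLX5622 blocks, was at 8229, 8325, 8435, 8163 and 8902 in choroid and at 672, 452, 416, 474 and 867 in retina (3.92). Of 12 tissue macrophage genes 11 were higher in choroid, and *Cd163* (8.24), *Ms4a7* (7.75) and *Pf4* (7.65) led. *Lyve1* was the exception, at 252 to 335 in retina and 126 to 390 in choroid, with an interval of -0.72 to 0.54.

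The genes listed for homeostatic microglia were divided. Of 10 tested, 6 were higher in choroid, 1 in retina and 3 were not called. *Tmem119* was at 1708, 1882, 1366, 1352 and 1622 in choroid and at 81.7, 73.8, 53.2, 61.6 and 68.0 in retina, a difference of 4.53 (SE 0.13, adjusted p = 4.2e-08). *Olfml3* (5.11), at 5087 to 9655 against 67.9 to 403, *Gpr34* (2.61) and *Cx3cr1* (2.58) were higher in choroid too. *P2ry12*, a purinergic receptor of microglia, was at 226 to 288 in choroid and 125 to 167 in retina, apart in every mouse but with a difference of 0.82. The microglial factor *Sall1* (-0.28, interval -1.15 to 0.59) and *Siglech* (0.64) overlapped between the tissues. *Tmem119* and *Olfml3* thus differed about as much as the pan-phagocyte genes, and *P2ry12*, *Sall1* and *Siglech* did not reach the call. *Tmem119* and *Olfml3* are known outside microglia, in osteoblasts and fibroblasts respectively. *Slc2a5* was called higher in retina (-2.62) on 1.39, 1.68, 15.0, 61.2 and 3.68 normalized counts and was dropped at a minimum mean of 10.

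Genes of antigen presentation were also choroidal. All 7 genes of MHC class II were higher in choroid. *Cd74*, the invariant chain, was at 9683, 11636, 14596, 11122 and 14591 in choroid, and in retina it was at 505 and 1030 in mice 1 and 5 and at 60.6 to 124 in the others. *H2-Aa* (5.68) and *H2-Eb1* (5.63) were likewise highest in the retinas of mice 1 and 5. Of 12 mast cell genes 9 were at 0 in every retina, so they passed the minimum mean through the choroid alone, and neither the list's count nor its median is read. *Tpsb2* at 72.6 to 299, *Mcpt4* at 49.2 to 251 and *Cma1* at 50.5 to 236 were at least 54.3-fold, 50.7-fold and 43.8-fold higher. *Hdc*, which makes histamine, was at 271 to 631 in retina and 12.9 to 125 in choroid (-3.61). Of 8 tested neutrophil genes 7 were higher in choroid, with *Camp* at 53.0 to 116 against 0 in all retinas (at least 26-fold) and *Mmp8* (5.71) at 127 to 197. *Retnlg* reached 52.8. The list summed to 320 and 227 normalized counts in the retinas of mice 1 and 5, to 51.3 to 65.6 in the other retinas and to 734 to 1228 in the choroids. Of 12 lymphocyte genes 9 were called higher in choroid, among them *Cd4* (5.43), *Trac* (4.19) and *Cd79b* (3.90), and *Cd4* was at 213 to 342. The list summed to 13.6 to 53.0 normalized counts in a retina and 414 to 647 in a choroid. In every retina 2 members were at 0. Members could thus pass the minimum mean through the choroid, and the list's count is not read further.

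Complement, chemokines and lysosomal proteases were mostly choroidal too. Of 19 complement genes 16 were higher in choroid (median 3.99). *Cfd*, adipsin, was at 483, 173, 1604, 1982 and 1486 in choroid and 0 in every retina, at least 382-fold higher, and differed between the mice. *Cfb* (8.21) and *C1s1* (7.64) followed. Of 31 tested CC and CXC chemokines 23 were higher in choroid, led by *Ccl11* (8.32) and *Ccl8* (7.87). *Cxcl12* (5.28) was at 14664 to 18146 against 330 to 468. The 2 higher in retina were *Ccl27a* (-1.96) and *Ccl21d* (-2.80), whose near-identical copies can share reads. Of 13 tested cathepsins 12 were higher in choroid, with *Ctsk* (6.05) and *Ctss* (4.33) at the top, and *Ctsf* (-1.09) in retina. The difference of *Ctsf* was close to the fold required for a call. Hemoglobin and erythroid genes were higher in choroid in 5 of 5 but uneven. *Hba-a1* was at 2055, 414, 204, 249 and 940 in choroid and at 66.7, 125, 77.1, 25.7 and 0 in retina (adjusted p = 0.0087), and *Hbb-bs* ran alike, both being near-identical to a second copy.

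Cell cycle genes were higher in choroid in 16 of 18, with a median of 4.03. *Mki67* was at 1630, 1799, 1519, 2005 and 2162 in choroid and at 138, 14.2, 27, 9.93 and 66.6 in retina. *Top2a* (5.86) and *Aurkb* (5.69) behaved alike. Within the retina the values of *Mki67*, *Cd74*, *Edn2* and *Csf1r* were higher in mice 1 and 5 than in mice 2 and 4, a comparison chosen after the values were seen.

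Junction and channel families held members at both ends. Of 17 tested connexins 11 were higher in choroid and 3 in retina. *Gjd2*, the connexin of retinal electrical synapses, was at 1874 to 2419 in retina and 1.99 to 26.3 in choroid (-7.68), and *Gja10* (-4.92) of horizontal cells was also retinal. *Gjb6*, at 706 to 1093 in choroid and 0 in all retinas, was at least 310-fold higher. *Gjb2* (9.47) was at 2648 to 3594 in choroid and was at 56.8 in the retina of mouse 1 and at 0 to 2.67 in the others. Of 16 tested claudins 8 were higher in choroid, led by *Cldn1* (6.02), at 3752 to 4067 against 26.1 to 86.6, and *Cldn11* (5.99), and 1 in retina, *Cldn23* (-2.86). Of 9 tested aquaporins 3 were higher in retina, with *Aqp6* (-5.42) before *Aqp4*. In choroid 2 were higher, *Aqp7* (3.39) and *Aqp1* (2.16), the latter at 8610 to 12032 against 1974 to 2859. With so few members, neither aquaporin count stood out from the shares of all genes (22.2% in retina and 26.3% in choroid). Semaphorins, guidance cues for axons and vessels, counted 8 of 20 in choroid, with *Sema3c* (5.64) and *Sema3b* (4.03), and 5 in retina, with *Sema5b* (-3.13) and *Sema3e* (-2.94), the latter count close to the 22.2% of all genes. Of 339 tested solute carriers 118 (median of the family 0.40) were higher in choroid and 83 in retina, against 26.3% and 22.2% of all genes, so the retinal count was near the background. *Slc45a2* and *Slc36a2*, the latter at 150 to 367 against 0 in all retinas, were at the choroidal end.

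**Figure D5:**
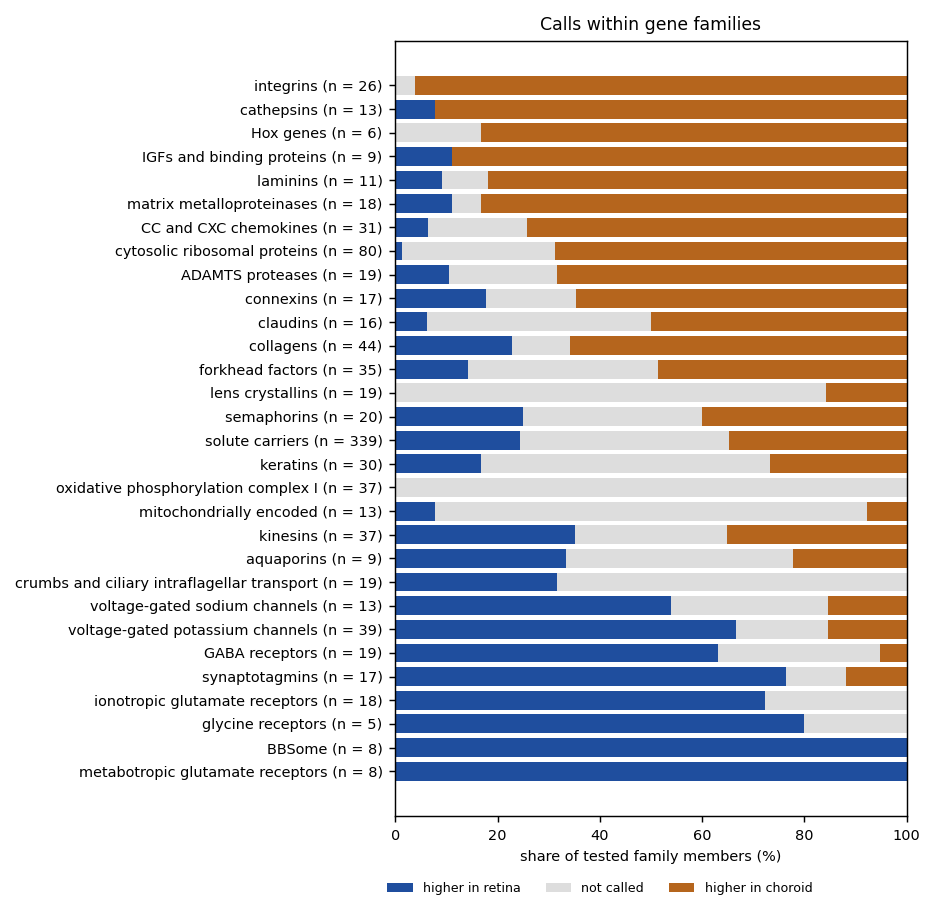
Bars give, for each gene family, the share of tested members (x axis, %) called higher in retina (blue), not called (grey) and higher in choroid (brown), with the number tested beside the name. Integrins are almost wholly brown, metabotropic glutamate receptors and the BBSome wholly blue, and the complex I family wholly grey.

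On average over the 5 mice, subunits of respiratory complex I and mitochondrially encoded genes differed little between the tissues, while ribosomal protein genes did differ. None of 37 subunits of respiratory complex I was called in either direction, and their differences ran from -0.63 to 0.83. The median complex I gene of a choroid was at 137%, 90.0%, 84.3%, 137% and 116% of the same mouse's retina in mice 1 to 5. The direction thus differed between mice. Summed over the subunits, the retinas of mice 2 and 3 were highest, at 66614 and 65431 against 41970 to 48322. Of 13 mitochondrially encoded genes 11 were not called. *mt-Co3* (1.05) and *mt-Nd6* (-1.23) were, and *mt-Co3* was no longer called with equal totals or equal 75th percentiles, or without mouse 1 or mouse 5, and *mt-Nd6* was no longer called without mouse 5 (-0.93). Neither was called when the difference had to exceed 1 beyond its error (limma treat). Of 80 tested cytosolic ribosomal protein genes 55 were higher in choroid with a median of 1.18. The count was 42 with equal totals, 41 with equal 75th percentiles, and 23 with limma treat. *Rps4l* (-1.05) was the one called in retina, and was lost without mouse 2, 3 or 4.

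Markers of neighbouring tissues varied between libraries of one kind. Of 15 genes of cornea, conjunctiva and lens, 4 were called, all higher in choroid, a share close to the 26.3% of all genes. The list summed to 28989, 325, 4712, 49.3 and 12572 in the retinas and 2718, 3439, 5354, 22466 and 3921 in the choroids of mice 1 to 5. *Krt5*, a keratin of stratified epithelia, was not called over 5 mice (2.48) but passed without mouse 1 (4.39, adjusted p = 0.032). It was at 5856 in the retina of mouse 1 and 0.767 to 14.0 in the others, and at 4561 in the choroid of mouse 4 and 1.95 to 353 in the others. *Krt12*, the corneal keratin, was at 219 in the retina of mouse 1, at 1.13 to 17.3 in the other 4 retinas and at 0.960 to 19.7 in the choroids. *Aldh3a1*, a corneal enzyme, was at 1637 in that retina and 2.16 to 13.1 in the other 4, and at 1113 to 1905 in choroid. The lens gene *Cryaa* was at 381, 107, 1920, 7.47 and 6457 in retina. Of 30 tested keratins 8 were called higher in choroid and 5 in retina, against 26.3% and 22.2% of all genes, so neither count stood out from the background. Without mouse 1 the count in choroid was 16, while that of the cornea, conjunctiva and lens list was 8. *Krt8* (5.94), a keratin of simple epithelia such as RPE, was at 2688 to 4019 in choroid. Of 19 lens crystallins 16 were not called, and *Crybg1* (3.21) and *Crygn* (3.94) were among the 3 higher in choroid.

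The difference between the tissues was then looked at in the 5 *Tgfbr2* deltaEC mice on normal diet, which share no library with the control mice. Of the 6361 genes higher in the choroid of control mice 6317 (99.3%) had the same sign there, and of the 5384 higher in retina 5346 (99.3%) did. The call was also reached by 5682 (89.3%) and 4461 (82.9%). The difference itself, tested as the interaction of tissue and genotype in 20 libraries, was called for 179 of 24244 genes (0.738%) at an adjusted p at or under 0.05. In all 179 the value was positive (0.80 to 4.65), and 178 were genes called higher in retina in the control mice, whose retinal excess was smaller in the *Tgfbr2* deltaEC mice. The other one, *Gm8748*, was not tested in the control mice, and its means were 0 and 12.5 in the choroids and 0.38 and 0.58 in the retinas of control and *Tgfbr2* deltaEC mice. *Gria2*, for example, had a mean of 36.8 in the choroids of control mice and 315 in those of *Tgfbr2* deltaEC mice, and 4127 and 5041 in the retinas (interaction 2.68, adjusted p = 0.0080). *Slc17a6* had 6.43 and 98.9 in choroid and 1584 and 1606 in retina (interaction 4.41, adjusted p = 0.032). The median rod gene stood at 3.25% to 10.4% of the same mouse's retina in the 5 *Tgfbr2* deltaEC choroids, compared with 0.30% to 2.43% in the control choroids. The part of this retinal content in the interaction was not tested. The count was 77, 53 and 84 without control mouse 1, 2 or 3, and 18, 343, 20 and 48 without *Tgfbr2* deltaEC mouse 6, 7, 9 or 10.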

How the data were processed

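Retina and choroid of 20 lasered mice were sequenced by the authors as polyadenylated, stranded libraries (single reads). Per the labels and the study's methods, reads were checked with FastQC 0.11.5 and quantified with Salmon 1.10.1 on GRCm39, and the authors deposited a table of gene signal after DESeq2 1.36.0, called normalized counts here, for 54307 genes. The study's methods analysed the tissues apart after quantification, with sex and an estimated percentage of neuronal cells as covariates. Here the mouse block takes up sex, and no neuronal percentage was fitted, also not for the interaction with genotype. The tissues were compared directly here, since the 40 libraries were on one scale. Each had a median of 1.0082 when 15800 genes without zeros were divided by their geometric means. Whole reads were not recovered, since 46.8% to 65.2% of low values lay within 0.1 of a whole multiple of the estimated value of 1 read, so no count test was run. The approximate depth was 20987041 to 30319836 reads per retina and 21583339 to 28252868 per choroid.

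Differences were fitted with limma 3.58.1 in R 4.3.3 (mean-variance trend, log2(normalized count + 1), mouse as block, Benjamini-Hochberg over 24224 genes with a mean of at least 1). Genes called had an adjusted p at or under 0.05 and a difference of at least 1. An exact permutation test of 5 pairs cannot go below p = 0.0625 and was not used. The pairing came from the library names. Male-specific genes were expressed in both tissues of 3 mice and *Xist* in both tissues of the other 2, without a mismatch. Deviations from the group means correlated by 0.00 to 0.24 between same-numbered samples and by -0.27 to 0.30 between differently numbered ones, so the pairing rests on the names and not on these correlations. Each p-value of a tissue difference rests on how that difference varied over these 5 mice, with the variance moderated by limma across genes. Those of the interaction rest on the 20 libraries of both genotypes on normal diet.

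The 35 gene lists (442 of 443 symbols matched, *Fcrls* not), 30 families by symbol, the markers and the rules were chosen with earlier results of these data known. By rule 223 genes could be named: the given markers, the 10 largest differences and 5 lowest p-values per direction, the leading and contrary members of lists and families, the opsins and 3 genes nearest 0. Another 39 genes were chosen after their values were seen. Symbols and positions came from GENCODE release 39 (53700 genes matched, 607 did not), a later release than the authors'. Alternatives were other pseudocounts (0.5, 5), minimum means (above 0, 10), scalings, no block, robust variance, all 40 libraries, limma treat, the adjusted p alone and leaving out each mouse. Python 3.11.15, numpy 2.4.6, pandas 2.3.3 and matplotlib 3.10.9 were used. A floor of 3 normalized counts per library was set for genes at 0, and it covers counting error alone. Unlasered eyes were not analysed here, and some genes are not reported here.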

Additional observations from a re-analysis of the deposited data

Results flagged for a closer look

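In each group of 5 libraries the gap between the highest or lowest value and its neighbour was compared with the whole range of the group, over 509 groups of a named gene in a tissue. The gap exceeded 0.71 of the range in 44 of them, where about 1 in 20, or 25.4, would be passed by chance. Mouse 1 was highest by such a gap in retina for *Prg4* (0.838), *Itgbl1* (1.000), *Mmp3* (0.954), *Tnnc2* (0.854), *Chad* (0.801), *Aldh3a1* (0.993), *Gjb2* (0.953), *Crybg1* (0.899), *Krt8* (0.789), *Krt80* (0.990), *Syt8* (1.000), *Krt12* (0.926) and *Krt5* (0.998). Mouse 2 was highest by such a gap in retina for *Six6* (0.770), *Pou4f1* (0.740), *Slco1a4* (0.760), *Krt222* (0.798), *Sema3c* (0.794), *mt-Co3* (0.836) and *Lhx2* (0.801). Mouse 3 was highest by such a gap in retina for *Myh4* (0.828) and *Rpl39l* (1.000). Mouse 4 was highest by such a gap in retina for *Arr3* (0.807), *Cngb3* (0.819), *Slc2a5* (0.773), *Bmpr1b* (0.861), *Adamts2* (0.755), *Bbs7* (0.778) and *Myh13* (0.968). Mouse 5 was highest by such a gap in retina for *Dpt* (1.000) and *Kcnq1* (0.762). Mouse 1 was highest by such a gap in choroid for *Mmp8* (0.983) and *Gjb2* (0.746). Mouse 2 was highest by such a gap in choroid for *Grin1* (0.780) and *Opn5* (1.000). Mouse 3 was lowest by such a gap in choroid for *Syt1* (0.744). Mouse 4 was highest by such a gap in choroid for *Slc2a5* (1.000), *Igfbp1* (1.000) and *Krt5* (0.923). Mouse 5 was highest by such a gap in choroid for *Gabra2* (0.852), *Gpr34* (0.724), *Retnlg* (0.771) and *Sema5b* (0.755). Mouse 5 was lowest by such a gap in choroid for *Itga11* (0.722). The values in parentheses are the gap as a share of the range, and 1.000 means that the other 4 libraries were at the same value. The retina of mouse 1 was the library most often apart, and epithelial genes (*Krt5*, *Krt80*, *Aldh3a1*, *Gjb2*) were among its genes. Some of its flags rest on a few normalized counts: *Prg4* 4.53, *Itgbl1* 1.16, *Mmp3* 8.49, *Tnnc2* 4.84 and *Chad* 3.62, while *Krt5* was at 5856. So do *Dpt* (0.754) and *Rpl39l* (1.05) in retina and *Opn5* (1.15) and *Igfbp1* (0.901) in choroid. The causes were not tested.

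The tissue difference differed between genotypes for 179 genes, and 22 of them are among the named genes, with interactions of *Gria2* (2.68), *Syt1* (1.61), *Fstl5* (3.87), *Glra2* (3.48), *Lactbl1* (3.66), *Slc32a1* (3.42), *Gpr179* (1.79), *Gabrr1* (3.50), *Scgn* (3.46), *Gucy2e* (1.68), *Glra3* (3.30), *Cnga1* (2.68), *Grm5* (2.75), *Kcnh7* (2.67), *Pitpnm3* (1.35), *Slc17a6* (4.41), *Grin1* (2.93), *Bhlhe23* (3.0), *Crb1* (2.91), *Vsx1* (3.13), *Arr3* (2.59) and *Gjd2* (2.98) on the log2 scale. Each is positive, so the retinal excess was smaller in the *Tgfbr2* deltaEC mice. Rod transcripts of the choroid were also higher in those mice, and the part of retinal content in these values was not tested.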

How the results depend on the processing

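The count of genes higher in choroid ran from 5177 to 6556 over the alternatives with the same call rule and that in retina from 4119 to 6006, both lowest at a minimum mean of 10. With a different rule, under which the difference had to exceed 1 beyond its error (limma treat), they were 4624 and 3378, and by the adjusted p alone 8113 and 7714. Leaving out each mouse in turn gave 6045 to 6327 and 5001 to 5221. The mouse number pairs the tissues of one animal, and without the replicate block 6387 and 5435 genes were called and the interaction with genotype counted 265. Apart from *Slc38a5*, no named gene gained or lost its call without the block. The interaction count of 179 was 170 with a pseudocount of 5 and ran from 18 to 343 when a mouse was left out. With equal totals and equal 75th percentiles the sign turned for *Dnaja1* (-0.15 and -0.17), *Cpeb4* (-0.15 and -0.16), *Ncl* (-0.15 and -0.17) and *Cryaa* (-0.043 and -0.057). Without 1 mouse each, the differences ran from -0.039 to 0.024 for *Dnaja1*, -0.024 to 0.041 for *Cpeb4*, -0.025 to 0.048 for *Ncl*, -0.45 to 0.69 for *Cryaa*, -1.15 to 0.25 for *Gfap*, -0.27 to 0.24 for *Lyve1*, -0.18 to 0.21 for *Mmp9* and -1.30 to 0.19 for *Krt12*, none of which was called. Over single genes and settings, 3862 values kept their direction and side of the threshold, 36 fell short of it, 4 newly passed it and 21 turned sign. With limma treat 12 of the 262 named genes lost their call. Of the list and family counts 1892 stayed within 1.5 times the reported count and 58 did not. Of these 58, 19 arose with limma treat and 9 at a minimum mean of 10, out of 130 counts in each setting. At a minimum mean of 10 the lymphocyte list counted 4 genes and the mast cell list 7, since fewer genes were tested. The causes of the other changes were not tested. Genes of a few normalized counts, such as *Opn5*, are limited by depth.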
